A study of Mus musculus with 2 samples.

Results

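The NRF2 antioxidant genes described here are 10 genes of the cell's defence against oxidants, chosen by symbol from a table of 50508 genes: Nfe2l2, Keap1, Nqo1, Hmox1, Gclc, Gclm, Txnrd1, Srxn1, Slc7a11 and Prdx1. All 10 symbols were present, 1 row each. The set was picked because Nqo1 was among the genes with the largest positive differences between the libraries, so the differences below are descriptions and support no statement about the set. The cells were E14, an embryonic stem cell line from 129/Ola mice, at passages 15 to 18. They received scramble siRNA in one group and Mettl8 siRNA in the other through Lipofectamine RNAiMAX, and total RNA was taken 72 h afterwards. Both groups were kept on gelatin in GMEM with 15% FBS, 1000 U/ml of the cytokine LIF, 2 mM glutamine, 1 mM pyruvate and 0.1 mM of the thiol b-mercaptoethanol. Each group is 1 sequenced library. The series text mentions triplicates, yet the table has 1 column per group, and whether a column pools cultures is not given in the sources used here.

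NRF2, the product of Nfe2l2, is a transcription factor that the adaptor KEAP1 normally holds for ubiquitination and breakdown. Oxidants and electrophiles modify cysteines of KEAP1, NRF2 then accumulates, pairs with small MAF proteins and binds antioxidant response elements near its target genes. The targets make glutathione, reduce thioredoxin and peroxiredoxins, detoxify quinones and break down heme. NRF2 is controlled mainly through protein stability, which transcript levels do not measure.

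Levels are FPKM, that is, reads scaled by gene length and by the reads of the library, as the authors deposited them. Reads per gene were rebuilt from FPKM. The intervals given are exact 95% Poisson intervals for a level and exact Clopper-Pearson intervals for a ratio. For a ratio of ratios they are conditional odds ratio intervals. They cover counting error only. Without molecular identifiers several reads can come from 1 molecule, so they may be too narrow even for that error. With 1 library per group no difference has a replicate check and no test was made. Each log2 difference is taken on the log2(FPKM + 1) scale, Mettl8 siRNA label minus scramble siRNA label, which understates differences of low genes. Mettl8 itself went against its label, with 0.67 FPKM under the scramble siRNA label and 100.3 FPKM under the Mettl8 siRNA label, so the labels are only used as names. The genes of the table hold 22.2 M and 21.4 M reads in these 2 libraries, M being 10 to the power 6. The 8 stem cell markers lay between 36.9 and 578 FPKM, and the 8 fibroblast markers were at most 0.66 FPKM in either library. The 5 endoderm and 4 trophectoderm markers were all below 1 FPKM. Among the 4 neural markers Tubb3 reached 17.9 FPKM in each library. Under the scramble siRNA and Mettl8 siRNA labels, Neurod1 was 2.52 and 2.34 FPKM, Pax6 1.06 and 1.27, and Sox1 0.17 and 0.19. In bulk RNA fewer cells of a type and less RNA per cell cannot be told apart.

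Promoter sequences are shown first, because these genes are known as targets of a factor that reads a short DNA element. The RefSeq promoter table (GRCm38.p6, 250 bases before to 50 bases after each gene start) holds windows for 8 of the 10 genes: Nfe2l2, Keap1, Nqo1, Gclm, Txnrd1, Srxn1, Slc7a11 and Prdx1. The element core was searched as TGACNNNGC on both strands, and a fuller form as TGANTCAGC on both strands. The forms overlap: TGACTCAGC matches each of them. The core was found in the windows of 5 of the 8 genes, beside 14.0% of all 27025 genes with a window. The fuller form was found in 2 of the 8, Prdx1 and Srxn1, beside 1.37% of all genes. These genes were selected as known targets, so the share is a description, and a match is not shown to be a bound site. The 60-base stretches below run 5′ to 3′ along the gene's strand. Capitals mark the match, and in Gclm, Prdx1 and Txnrd1 they show the reverse complement because the match lies on the opposite strand.
Prdx1: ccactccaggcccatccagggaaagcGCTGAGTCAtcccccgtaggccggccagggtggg
Srxn1: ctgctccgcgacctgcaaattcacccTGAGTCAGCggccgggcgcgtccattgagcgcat
Nfe2l2: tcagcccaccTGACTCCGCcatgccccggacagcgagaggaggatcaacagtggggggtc
Gclm: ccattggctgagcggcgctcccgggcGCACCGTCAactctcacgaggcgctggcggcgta
Txnrd1: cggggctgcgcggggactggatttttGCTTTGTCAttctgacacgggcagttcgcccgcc
Nqo1: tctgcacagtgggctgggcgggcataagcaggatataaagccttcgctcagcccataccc
The stretches lie on GRCm38 at chr4:116685440-116685499 (plus strand) for Prdx1, chr2:152105453-152105512 (plus) for Srxn1 and chr2:75704854-75704913 (minus) for Nfe2l2. Those of Gclm, Txnrd1 and Nqo1 lie at chr3:122245397-122245456 (plus), chr10:82859088-82859147 (plus) and chr8:107403208-107403267 (minus). The Txnrd1 stretch lies inside the gene as the annotation GENCODE M21 places it (82833951 to 82897712, plus strand). Its window thus belongs to a start inside that gene, not to the gene's first annotated base. The match in Prdx1 is the complement of TGACTCAGC, the form that satisfies both searches, and begins 133 bases before the gene start. The match printed for Srxn1 is of the fuller form alone and begins 45 bases before the start. The core match of Srxn1, which is not printed, begins 28 bases after the start. The Nqo1 window, of which the bases nearest the start are printed, holds neither form, nor do those of Keap1 and Slc7a11. This says only that the letters are missing from these 300 bases.

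The 10 genes spanned a wide range of levels per length and kept the same order in both libraries. Prdx1, a peroxiredoxin that reduces hydrogen peroxide, was the most abundant, with 188 FPKM under the scramble siRNA label and 203 FPKM under the Mettl8 siRNA label. It made up 64.9% and 65.6% of the summed FPKM of the 10 genes and ranked 77 and 67 among 21490 protein-coding genes. Then came Txnrd1, Hmox1, Nqo1, Gclc, Nfe2l2, Gclm, Srxn1, Keap1 and, last, Slc7a11. In the library labelled scramble siRNA the intervals of Nfe2l2 (7.39 to 8.46 FPKM) and Gclm (7.34 to 8.16) overlapped, and so did those of Gclm and Srxn1 (6.24 to 7.40). In the other library the intervals of Nfe2l2 (8.44 to 9.60) and Gclm (7.81 to 8.66) overlapped, as did those of Gclm and Srxn1 (7.31 to 8.56). All other neighbours in the order were apart beyond counting error. For all 10 genes the deposited length matched the merged exons of GENCODE M21, so a gene with long alternative exons has a lower value than its main transcript alone would give.

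**Figure D1:**
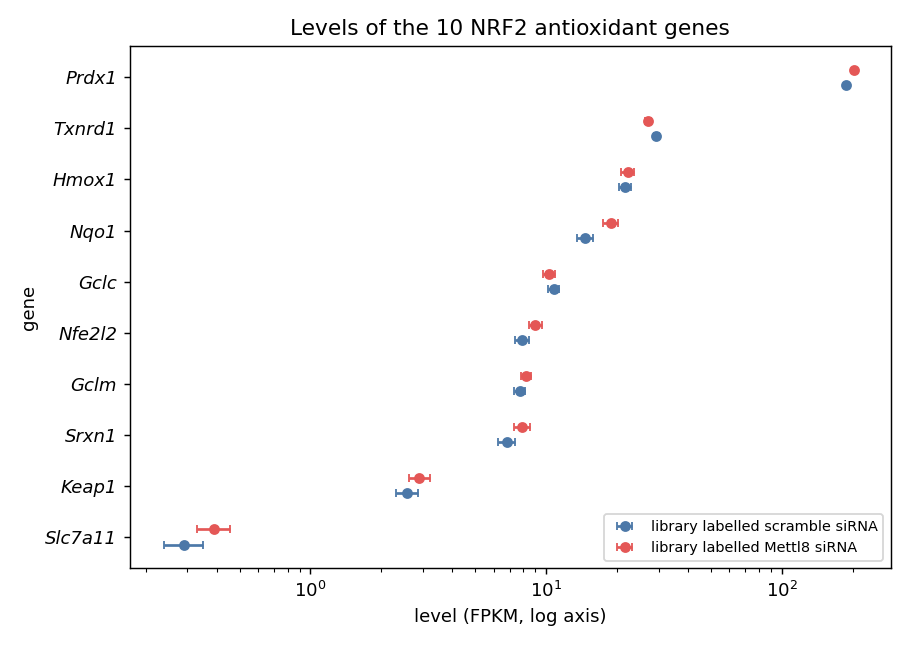
Level of each gene in FPKM (log axis) under the scramble siRNA label (blue) and the Mettl8 siRNA label (red), with exact 95% Poisson intervals as bars. Prdx1 stands at 188 and 203 FPKM and Slc7a11 at 0.29 and 0.39, with the other 8 genes between 2.56 and 29.3.

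The regulator transcripts Nfe2l2 and Keap1 were each slightly higher in the library labelled Mettl8 siRNA. Nfe2l2 (ENSMUSG00000015839.6, chromosome 2, 75675513 to 75704641, minus strand) was 7.91 and 9.01 FPKM, on 855 and 951 reads. Its ratio was 1.14 (1.04 to 1.25), and the log2 difference was 0.17. Keap1 (ENSMUSG00000003308.15, chromosome 9, 21229730 to 21239361, minus strand) was 2.56 and 2.90 FPKM, on 342 and 379 reads. Its ratio was nearly as large, 1.13, but the interval of 0.977 to 1.32 included 1. The inhibitor transcript stood to that of the factor at a ratio of 0.324 in one library and 0.322 in the other. The ratio of these ratios was 0.995 (0.835 to 1.19), so no shift in the balance of the pair was detectable at this depth. Of the exons of Keap1, 510 bases are shared with the antisense gene Gm16754 (1.72 and 1.79 FPKM). The strand setting of the counting is not given in the sources used here, so reads of this stretch cannot be assigned to one of the pair.

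Nqo1, the quinone reductase that is a standard readout of NRF2 activity, had the largest log2 difference of the 10. The gene (ENSMUSG00000003849.8) lies on chromosome 8, 107388225 to 107403206, minus strand. Its level was 14.7 FPKM (13.6 to 15.8) under the scramble siRNA label and 18.8 FPKM (17.5 to 20.1) under the Mettl8 siRNA label, on 648 and 811 reads. The intervals of the levels did not overlap. The ratio was 1.28 (1.15 to 1.42) and the log2 difference 0.34, at rank 13 among 5176 protein-coding genes with a mean of at least 5 FPKM. The set was chosen for this difference, so the intervals, ratio and rank of Nqo1 only describe it. Nqo2, the related quinone reductase that uses another cofactor, was 4.08 and 4.12 FPKM. Nqo1 thus exceeded Nqo2 3.59-fold (3.19 to 4.06) in the first library and 4.56-fold (4.06 to 5.13) in the second. This too restates the Nqo1 difference that the set was chosen for.

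Hmox1, the gene of heme oxygenase 1, which degrades heme to biliverdin, iron and carbon monoxide, was nearly level between the libraries. It was 21.6 FPKM (20.3 to 22.9) under the scramble siRNA label and 22.2 FPKM (20.8 to 23.5) under the Mettl8 siRNA label. The ratio was 1.03 (0.943 to 1.12). The gene (ENSMUSG00000005413.8) lies on chromosome 8, 75093621 to 75100589, plus strand. Hmox1 stood at 1.47 times Nqo1 (1.33 to 1.62) in the first library and at 1.18 times (1.08 to 1.29) in the second, which restates the Nqo1 difference that the set was chosen for. Hmox1 also responds to other factors, among them the repressor BACH1, whose gene Bach1 was 8.29 and 7.79 FPKM.

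Gclc and Gclm encode the catalytic and the modifier subunit of glutamate-cysteine ligase, the first and rate-limiting enzyme of glutathione synthesis. Gclc (ENSMUSG00000032350.9, chromosome 9, 77754535 to 77794485, plus strand) was 10.8 FPKM and 10.3 FPKM, a ratio of 0.956 (0.879 to 1.04). Its log2 difference of -0.06 became 0.03 once both libraries were brought to 1 common FPKM sum, so its direction depends on the scaling. Gclm (ENSMUSG00000028124.15, chromosome 3, 122245557 to 122270732, plus strand) was 7.74 and 8.23 FPKM, a ratio of 1.06 (0.987 to 1.15). Neither subunit was apart between the libraries beyond counting error. The catalytic transcript stood at 1.39 times the modifier (1.28 to 1.5) in the library labelled scramble siRNA and at 1.25 times (1.15 to 1.35) in the other. In reads Gclm exceeded Gclc, with 1386 against 1153 under the scramble siRNA label. The catalytic excess per length thus rests on the merged exon lengths, 6291 bases for Gclm and 3766 for Gclc. The interval of the ratio of ratios, 0.804 to 1.01 around 0.899, included 1. Gclm shares 296 exon bases with the opposite-strand gene Gm17494 (0.21 and 0.18 FPKM) and 244 with the pseudogene Gm6061 (1.36 and 0.51 FPKM).

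Slc7a11, which encodes the cystine carrier xCT that supplies cysteine for glutathione, was the one gene of the 10 with a mean below 1 FPKM. The gene (ENSMUSG00000027737.10) lies on chromosome 3, 49892526 to 50443614, minus strand. It was 0.29 FPKM (0.240 to 0.348) and 0.39 FPKM (0.330 to 0.457), on about 115 and 151 reads. Rounding of FPKM to 2 decimals leaves these reads uncertain by 1.98 and 1.94. The ratio of 1.34 (1.05 to 1.73) was the largest of the 10, while the log2(FPKM + 1) difference was only 0.11 because the level is low. Its partner chain on the cell surface, Slc3a2, which other amino acid carriers share, was far higher at 27.0 and 27.8 FPKM. Slc3a2 exceeded Slc7a11 93.2-fold (77.3 to 113) in the first library and 71.2-fold (60.4 to 84.5) in the second. A stretch of 585 aligned bases of the longest Slc7a11 transcript is 92.5% identical to Tuba1b, a tubulin gene at 108 and 109 FPKM. The treatment of multiply mapped reads is not given in the sources used here, so the low value of Slc7a11 is uncertain.

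**Figure D2:**
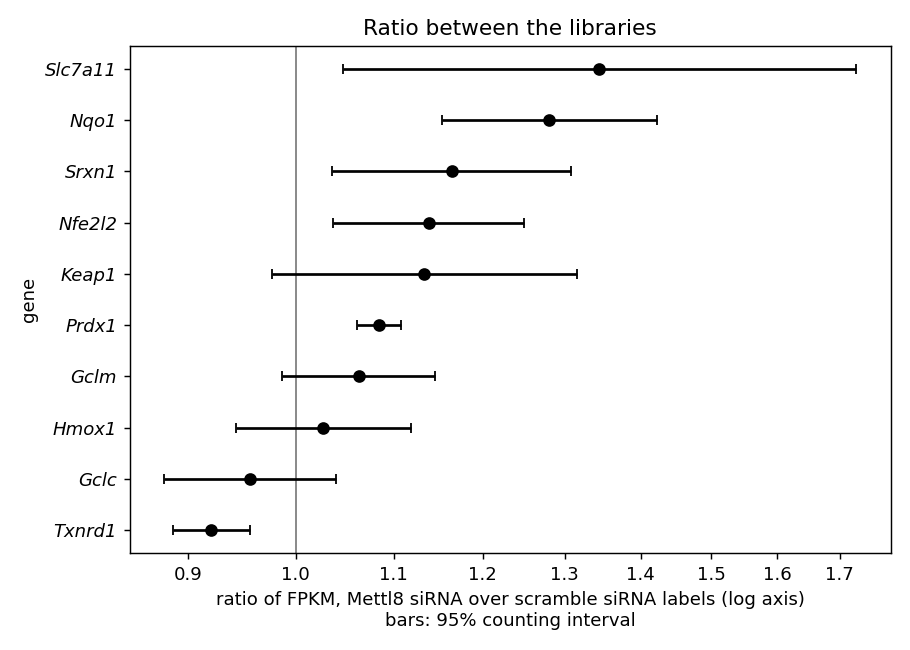
Ratio of FPKM in the library labelled Mettl8 siRNA over the library labelled scramble siRNA (log axis) for each gene, with exact 95% counting intervals as bars. Intervals of Nqo1, Nfe2l2, Srxn1, Slc7a11 and Prdx1 lie above 1, that of Txnrd1 (0.887 to 0.956) lies below 1, and those of Keap1, Hmox1, Gclc and Gclm include 1.

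The thioredoxin arm was split: Prdx1 and Srxn1 were higher and Txnrd1 lower in the library labelled Mettl8 siRNA. Srxn1 encodes sulfiredoxin, which repairs peroxiredoxins that hydrogen peroxide has overoxidised. It lies on chromosome 2, 152105516 to 152111376, plus strand (ENSMUSG00000032802.8). Srxn1 was 6.80 and 7.92 FPKM, on 546 and 621 reads, a ratio of 1.16 (1.04 to 1.31) and a log2 difference of 0.19. This was the second largest difference of the 10 on this scale, after Nqo1. Prdx1 (ENSMUSG00000028691.12, chromosome 4, 116685544 to 116700822, plus strand) had a ratio of 1.08 (1.06 to 1.11) on 16243 and 17217 reads. The narrow interval reflects its many reads. Processed pseudogenes copy its transcript: Gm21399, 98.3% identical over 597 aligned bases, was 4.83 and 5.30 FPKM, and Gm7204 was 1.46 and 1.86 FPKM. Txnrd1 encodes the cytosolic thioredoxin reductase, a selenoprotein that passes electrons from NADPH to thioredoxin, and lies on chromosome 10, 82833951 to 82897712, plus strand (ENSMUSG00000020250.10). It was 29.3 FPKM (28.6 to 30.1) and 27.0 FPKM (26.3 to 27.7), and the intervals did not overlap. The ratio was 0.921 (0.887 to 0.956). The Txnrd1 log2 difference of -0.11 shrank to -0.02 once both libraries were brought to 1 common FPKM sum. It was -0.07 with that sum over genes of at least 200 bases. The size of this difference thus depends on the scaling, which the counting intervals do not cover. Prdx1 stood at 6.39 times Txnrd1 in the first library and at 7.53 times in the second, a ratio of ratios of 1.18 (1.13 to 1.23). Against its repair enzyme Srxn1, Prdx1 stood at 27.6 and 25.7 times, and the interval of that shift (0.828 to 1.05) included 1.

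Read together, 7 of the 9 genes with a mean of at least 1 FPKM were higher and 2 lower in the library labelled Mettl8 siRNA. Of all genes with such a mean 54.1% were higher, and of the protein-coding ones 54.5%. With each library rescaled to the same FPKM sum, 8 of the 9 were higher and 1 lower. At 1.2-fold on the log2(FPKM + 1) scale, 1 of the 9 was higher, Nqo1, and 0 lower. Beside it, 4.48% of the 13243 genes with a mean of at least 1 FPKM were 1.2-fold higher and 5.01% lower. Among the 9965 protein-coding genes of these, 1.03% were higher and 1.58% lower. At 1.5-fold 0 of the 9 differed, beside 1.06% of all genes higher and 1.05% lower, and 0.0401% and 0.0602% of protein-coding genes. Counting intervals lay above 1 for 4 of the 9 and below 1 for 1, beside 11.6% and 7.84% of all genes and 13.8% and 8.75% of protein-coding genes. The median log2 difference of the 9 was 0.12, beside 0.01 over all genes, with a range of -0.11 (Txnrd1) to 0.34 (Nqo1). Since the set was picked from this contrast, nothing is read from these counts. Of the 1.2-fold calls over all genes, 47.2% were higher as deposited, 72.5% with each library rescaled to the same FPKM sum and 60.4% with that sum taken over genes of at least 200 bases. Under the first of these rescalings Srxn1 also passed 1.2-fold.

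**Figure D3:**
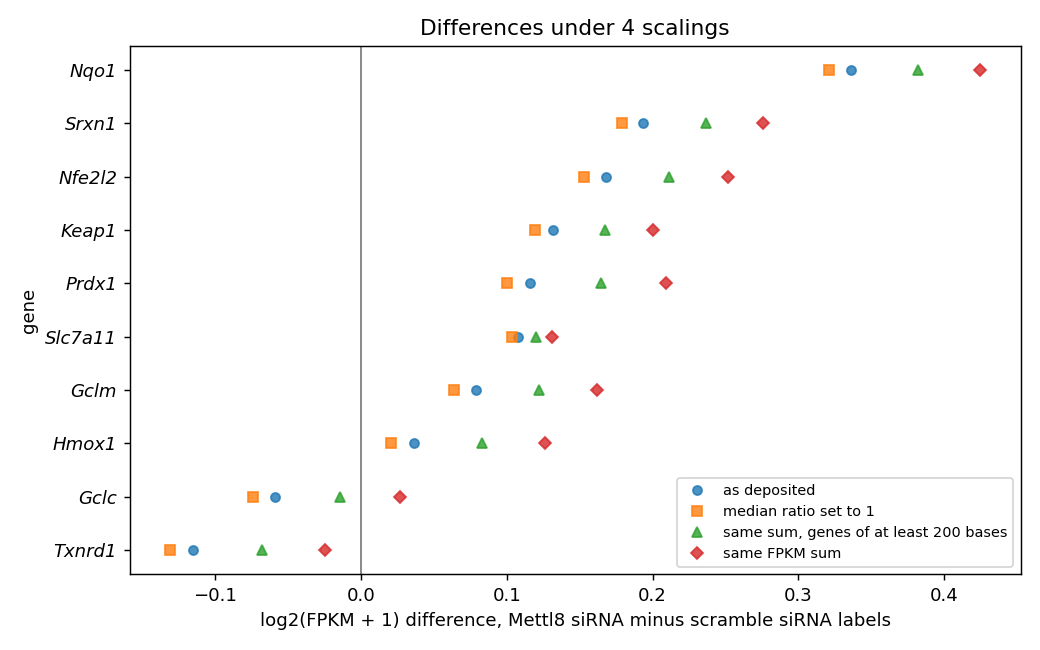
Difference of log2(FPKM + 1), the library labelled Mettl8 siRNA minus the library labelled scramble siRNA, for each gene under 4 scalings. Each rescaling moves all 10 genes in 1 direction: Gclc changes from -0.06 to 0.03 with the same FPKM sum, while Nqo1 has the largest difference and Txnrd1 the most negative one under each of the 4.

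Beyond the 10, a further 84 genes of the same pathways were listed in 8 role groups, with earlier results of these data known. Of these, 68 had a mean of at least 1 FPKM. The count was 38 higher, 27 lower and 3 equal in the library labelled Mettl8 siRNA, with a median of 0.01, the same as over all genes. Of all genes kept, 54.1% were higher. The split follows the scaling: it was 52 higher and 16 lower with each library at 1 common FPKM sum, 47 and 21 with that sum over genes of at least 200 bases, and 33 and 35 with the median ratio set to 1. At 1.2-fold 1 was higher, the carbonyl reductase gene Cbr3, and 1 lower, the glutathione peroxidase gene Gpx3. These amount to 1 of 68 each way, beside 4.48% and 5.01% of all genes and 1.03% and 1.58% of protein-coding genes. Both calls depend on the scaling, with the cut at 0.263 on the log2 scale. Cbr3 was 0.251 with the median ratio set to 1. Gpx3 was -0.226 with the common FPKM sum and -0.259 with that sum over genes of at least 200 bases. The peroxiredoxin gene Prdx3 reached 0.306 with the common sum.

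Transcripts of NRF2's regulators other than Nfe2l2 and Keap1 had no common direction, with a median of -0.01 (5 of 12 higher, 7 lower). Mafk and Maff, small MAF partners of NRF2, were 1.13 and 0.92 FPKM and 1.87 and 1.59 FPKM, and each ratio's interval included 1. Mafg, a further small MAF gene, was more abundant at 13.4 and 13.3 FPKM, a ratio of 0.991 (0.933 to 1.05). Sqstm1 encodes p62, an autophagy receptor that binds KEAP1 and is also an NRF2 target. It was 39.9 and 35.9 FPKM, a ratio of 0.90 (0.859 to 0.943), on the opposite side from Nqo1. Its log2 difference of -0.149 shrank to -0.057 with both libraries at 1 common FPKM sum. Dpp3, whose product also binds KEAP1, was at 38.6 FPKM in each library and had the highest mean of the group, although Sqstm1 was higher under the scramble siRNA label.

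The other glutathione genes divided evenly, with 9 of 19 higher, 9 lower and 1 equal. Gpx3, the secreted glutathione peroxidase, was 3.37 and 2.56 FPKM, a ratio of 0.760 (0.599 to 0.958). Glrx, a glutaredoxin gene, was 3.79 and 3.23 FPKM, and Gstz1, a glutathione transferase of tyrosine breakdown, was 6.73 and 5.83 FPKM, with intervals that included 1. Gsta4, a glutathione transferase that clears lipid peroxidation products, was the most abundant at 125 and 134 FPKM, with a ratio of 1.08 (1.04 to 1.12). The classical inducible transferase genes Gsta1 and Gsta2 had at most 0.03 FPKM. They were named after their values were seen.

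Among the other thioredoxin genes the median was 0.09, and 6 of 9 were higher, 2 lower and 1 equal. Of all genes kept, 54.1% were higher. Prdx3, the mitochondrial peroxiredoxin, was 21.7 and 25.3 FPKM, a ratio of 1.17 (1.07 to 1.28), and Txn2, the mitochondrial thioredoxin, was 9.15 and 10.2 FPKM, a ratio of 1.12 (1.03 to 1.21). Cytosolic Txn1 was 139 and 145 FPKM, with an interval of the ratio of 0.998 to 1.09. Txnip, which encodes an inhibitor that binds thioredoxin and is known for its response to glucose, was 72.9 and 61.1 FPKM, a ratio of 0.838 (0.808 to 0.869). Of the 6 peroxiredoxin genes 5 were higher and 1 lower, a count that includes Prdx1 from the set picked from this contrast. The lower one was Prdx6, named after its value was seen, at 15.7 and 14.1 FPKM.

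Among the other quinone and carbonyl genes the median was 0.09, and 6 of 9 were higher and 3 lower, beside 54.1% higher of all genes kept. Cbr3 was 8.14 and 9.99 FPKM, a ratio of 1.23 (1.04 to 1.45) and a log2 difference of 0.27. Its neighbour in function Cbr1 was 14.0 and 15.6 FPKM, and the aldo-keto reductase gene Akr1b8 was 3.07 and 3.57 FPKM, each with an interval that included 1. In the heme and iron group 4 of 7 were higher, 2 lower and 1 equal. The ferritin genes, heavy chain Fth1 (129 and 119 FPKM) and light chain Ftl1 (106 and 96.5), were the 2 lower ones. Their ratios were 0.924 (0.878 to 0.972) and 0.911 (0.870 to 0.953). With both libraries at 1 common FPKM sum, the log2 difference shrank from -0.113 to -0.020 for Fth1 and from -0.134 to -0.041 for Ftl1. The size of both differences thus depends on the scaling, which the intervals do not cover. Ferritin copies elsewhere in the genome may share reads with these genes. Fech, the gene of ferrochelatase, which inserts iron into heme, was 4.52 and 5.03 FPKM.

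The NADPH group holds NADPH-forming enzymes and the pentose phosphate enzymes Taldo1 and Tkt, which do not form NADPH themselves. NADPH feeds both the glutathione and the thioredoxin arm. The genes of the group were close between the libraries. Of the 6 genes, 5 were higher and 1 lower, beside 54.1% higher of all genes kept, and each interval included 1. Taldo1, a pentose phosphate enzyme gene, had the largest difference at 0.08 on the log2 scale (38.6 and 40.8 FPKM). G6pdx, the entry enzyme of that pathway, was 16.2 and 16.8 FPKM, and malic enzyme Me1 was 4.63 and 4.8 FPKM. Of the superoxide dismutase and catalase genes 3 of 4 had a mean of at least 1 FPKM. Sod1, the cytosolic dismutase, was 359 and 395 FPKM, a ratio of 1.1 (1.06 to 1.14), Sod2 was 22.6 and 23.2, and Cat was 23.0 FPKM in each. In the export group 3 of 7 genes had a mean of at least 1 FPKM; Abcc4, Abcc1 and Sesn2 were lower by at most 0.10 on the log2 scale, though Sesn2 was higher under both rescalings to the same sum. Abcc1, an exporter of glutathione conjugates, was 4.5 and 4.17 FPKM, and Abcc4 was 10.8 and 9.96.

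**Figure D4:**
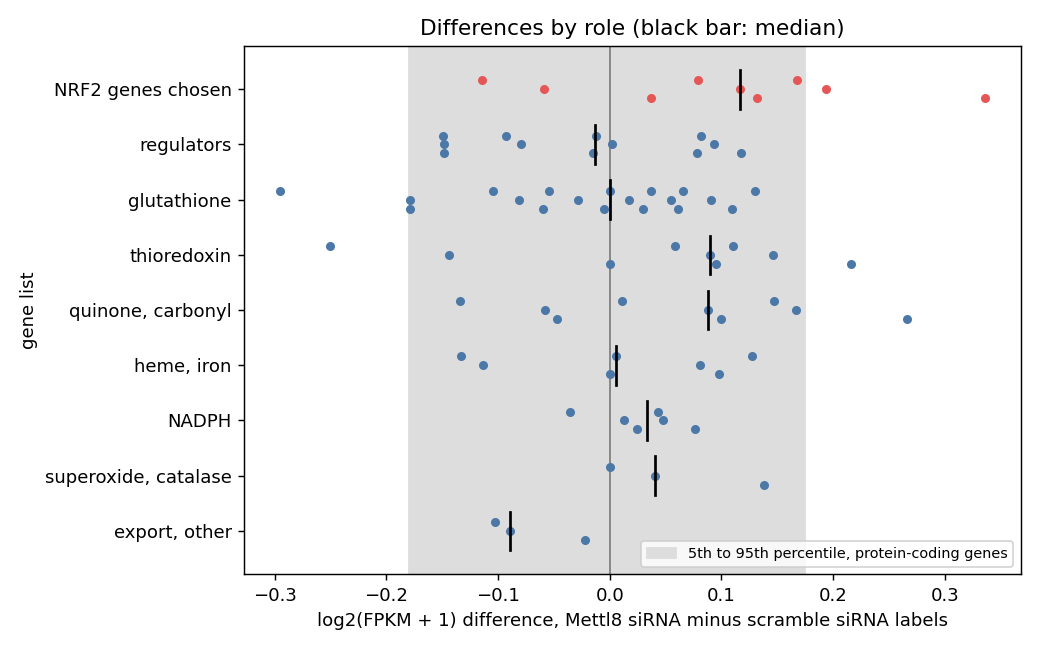
Difference of log2(FPKM + 1), the library labelled Mettl8 siRNA minus the library labelled scramble siRNA, for genes with a mean of at least 1 FPKM, by role, with points spread vertically for legibility. Red points are 9 of the 10 NRF2 genes chosen, blue points the other genes of each group, black bars medians, and the grey band the central range (5th to 95th percentile) of 9965 protein-coding genes, -0.18 to 0.18. Nqo1 (0.34), Srxn1 (0.19), Cbr3 (0.27) and Prdx3 (0.22) lie to the right of the band, and Gpx3 (-0.30) and Txnip (-0.25) to the left.

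Slc7a11 is also a target of ATF4, the factor of the amino acid and integrated stress response. Atf4 was 51.0 and 57.0 FPKM, a ratio of 1.12 (1.06 to 1.18). Its log2 difference of 0.16 became 0.25 with both libraries at 1 common FPKM sum. Of the 8 listed genes of that response other than Slc7a11, Atf4 included, 6 were higher and 2 lower. Of all genes kept, 54.1% were higher. Sesn2, 1 of the 2 lower genes, was higher under both rescalings to the same sum. The ATF4 targets Trib3 (3.75 and 4.18 FPKM) and Ddit3 (6.52 and 6.78 FPKM) had ratios whose intervals included 1. A link between Atf4 and the Slc7a11 difference was not tested.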

How the data were processed

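RNA sequencing of 2 libraries, 1 per group, was analysed. The values deposited by the authors are FPKM, rounded to 2 decimals, beside a gene length. Per the submitters' processing notes, STAR 2.4.0i, featureCounts 1.5.0-p1 and mm10 were used. The annotation, the strand setting and the handling of reads that map to several places were not given in the sources used here. Reads were rebuilt from FPKM times length: for genes under 400 bases and under 30 reads, 100% of 3116 and 3556 values came out whole (tolerance: the rounding and a further 0.005 reads), at denominators of 28.5 M and 27.8 M reads, M being 10 to the power 6. Gene type, position and exons came from GENCODE M21 (GRCm38, the assembly of mm10), which held 94.3% of the symbols. Copies were sought with blastn 2.17.0 (at least 90% identity over 200 bases). Python 3.11.15 and scipy 1.17.1 were used, and the steps were tested on simulated data. A 1.2-fold difference on the log2(FPKM + 1) scale (pseudocount 1) among genes with a mean of at least 1 FPKM served as the rule of size. The members and lists were chosen with earlier results of these data known. Named are the 10 members, Mettl8, and of each list the 3 other genes with the largest differences and the most abundant one. Other genes named in the text for comparison were added after their values were seen. Alternatives were another pseudocount, 3 scalings, 2 filters and 1.5-fold.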

Additional observations from a re-analysis of the deposited data

How the results depend on the processing

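Without replicates, the spread between cultures is unknown. The number of the 10 genes at least 1.2-fold higher, 1 as reported, was 2 after both libraries were brought to 1 common FPKM sum and 0 at 1.5-fold. Their median difference of 0.12 became 0.20 with the common sum and stayed between 0.10 and 0.16 under the other alternatives. The median of the other pathway genes, 0.01 as reported, was 0.092 with the common sum, 0.050 with that sum over genes of at least 200 bases, 0.0012 without a filter, 0.037 at a mean of at least 5 FPKM and -0.0023 with the median ratio set to 1. The common sum took the all-gene median from 0.01 to 0.09. Of 41 named genes, 2 changed sign under it, 1 under the sum over longer genes, 2 with the median ratio set to 1 and 0 with a pseudocount of 0.1. Sizes also depended on the scaling where the sign stayed. With the common sum Prdx1 went from 0.12 to 0.21, Sod1 from 0.14 to 0.23 and Txnip from -0.25 to -0.16. No paired analysis was possible because each group has 1 library.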

Other observations

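Protein-coding genes with a mean of at least 1 FPKM were also divided by whether their promoter window holds the element core TGACNNNGC. The 1323 genes with the core had a median log2(FPKM + 1) difference of 0.01 (quartiles -0.06 and 0.07), and the 6459 without it 0.01 (quartiles -0.05 and 0.08). Of genes with the core 0.907% were at least 1.2-fold higher in the library labelled Mettl8 siRNA, beside 0.898% of those without it. For the fuller form TGANTCAGC the medians were 0.02 over 93 genes with it and 0.01 over 7689 without it. These are descriptions across genes of 2 libraries, and genes are not replicates. The core is held by 14.0% of all genes with a window and is absent from that of Nqo1. The division thus does not separate NRF2 targets from other genes, and nothing about the element is read from it. Of the 71 further pathway genes with a promoter window, 14 held the core, or 19.7%, and 3 the fuller form, or 4.23%.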
